A study of Mus musculus with 6 samples.

Results

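The collagen chains are the rows of the count table whose symbol is Col, a number, the letter a and a second number. This rule found 44 chains among 24404 genes. They were sorted by type into 11 fibrillar chains, 6 basement membrane chains, 6 chains of the beaded filament type, 9 FACIT chains (fibril-associated collagens with interrupted triple helices) and 12 chains of the remaining types. Of the 44 chains, 31 passed the filter on low counts and were tested. Of the 13 others, Col6a4 had no count in any library, and none exceeded 29 counts in 1 library. Col21a1 was not analysed here.

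Hearts of mice lacking the microRNA miR-204 (KO-TAC, miR-204-/-) and of wild-type mice (WT-TAC) were collected 5 weeks after transaortic constriction, an operation that narrows the aorta and makes the left ventricle pump against a higher pressure. Each genotype had 3 samples, and messenger RNA was sequenced once per sample. Both groups had the operation and no unoperated heart was analysed here, so the comparison is between genotypes under load. The labels give no strain, sex, age or number of animals per sample, and do not say in which cells miR-204 was absent. Nothing in them says that samples came from separate animals, so a p-value refers to the spread between the samples as deposited, which may be technical.

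A collagen molecule is a triple helix of 3 chains, made from identical or different genes. Fibrillar collagens (types I, III, V, XI and their relatives) form the tensile fibres of the heart's interstitium and scars, type IV forms the sheet-like basement membrane around cardiomyocytes and capillaries, type VI forms beaded filaments between cells and fibres, and FACITs sit on fibril surfaces. In the pressure-loaded heart, fibroblasts are the known main source of types I and III, while endothelial cells are a known source of type IV. Members of the miR-29 family are known to repress many collagen transcripts in cardiac fibroblasts.

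The microRNA that was deleted and the family known for acting on collagens have different seeds, the bases with which a microRNA pairs with a target. Both mature sequences are shown with the seed, bases 2 to 8, in capitals, as listed by RefSeq for GRCm38.p6. miR-204-5p lies on the plus strand at chr19:22750610-22750631, and miR-29a-3p on the minus strand at chr6:31062673-31062694.
miR-204-5p: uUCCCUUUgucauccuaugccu
miR-29a-3p: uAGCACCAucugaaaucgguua
miR-211-5p has the same seed as miR-204-5p, and miR-29b-3p and miR-29c-3p have that of miR-29a-3p. The 3' UTRs of the GENCODE M21 annotation (GRCm38), the longest per gene, were searched on the transcript strand for the exact complement of each seed, AAAGGGA for miR-204-5p and TGGTGCT for miR-29.

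The miR-204 match was found in 6 of the 44 chains, which were Col4a3, Col5a1, Col6a1, Col6a6, Col15a1 and Col27a1. All 6 were tested, so 19.4% of the 31 tested chains held it, beside 17.0% of the 11683 tested genes with an annotated 3' UTR. The miR-29 match was found in 25 of the 44 chains and in 64.5% of the 31 tested ones, beside 16.3% of the tested genes. Per kilobase of 3' UTR, miR-29 matches numbered 0.706 in tested chains and 0.114 in tested genes. For miR-204 both figures were 0.121. The median 3' UTR was 1315 bases long in tested chains and 1253 bases in tested genes. A match describes the letters of the 3' UTR and does not show that a microRNA acts there.

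**Figure D1:**
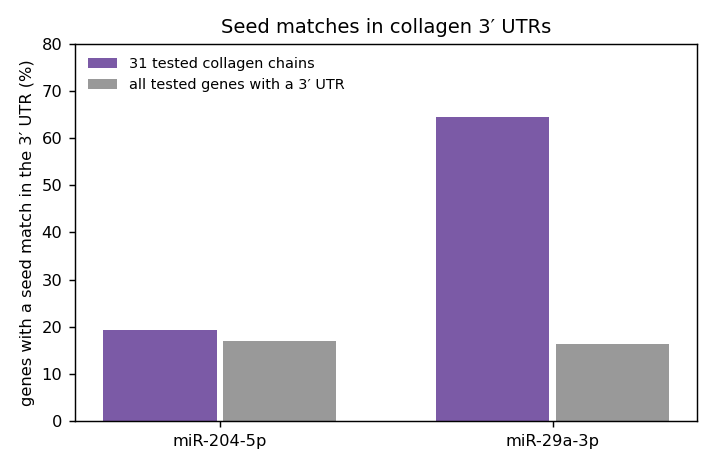
The vertical axis gives the percentage of genes whose longest annotated 3' UTR holds the exact seed match of miR-204-5p or miR-29a-3p, for the 31 tested collagen chains (purple) and for all 11683 tested genes with a 3' UTR (grey). The miR-204 bars stand at 19.4% and 17.0%, and the miR-29 bars at 64.5% and 16.3%.

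The miR-204 matches of all 6 chains are shown with 10 bases on each side and the match in capitals, since they are the matches to the microRNA that was deleted. For comparison, 1 miR-29 match each is shown from Col1a1, Col3a1 and Col4a1, which encode major chains of types I, III and IV.
Col4a3, miR-204 match: aggactgctcAAAGGGAccccgctggc
Col5a1, miR-204 match: cagagagaacAAAGGGAaagagccgtg
Col6a1, miR-204 match: caactgtcttAAAGGGAacgctgagat
Col6a6, miR-204 match: ttcgggaaggAAAGGGAgccatgtggg
Col15a1, miR-204 match: acagccagggAAAGGGAtccgctcaga
Col27a1, miR-204 match: ccttgtggggAAAGGGAagagatgggg
Col1a1, miR-29 match: aaggaatttcTGGTGCTatagaagctg
Col3a1, miR-29 match: aatgtctcaaTGGTGCTataataaata
Col4a1, miR-29 match: cgtcacaacaTGGTGCTactccccccc
The flanking letters differ among the chains, so what the 6 chains share here is the 7 bases of the match.

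Libraries held 6609315, 8494415 and 7013199 counts in KO-TAC and 6411538, 8571737 and 7207111 counts in WT-TAC. Myh6, the adult cardiac myosin heavy chain, stood at 38590 to 58400 CPM, the counts scaled to a common library total, in KO-TAC and 40970 to 49130 CPM in WT-TAC, so the defining heart markers were present. Of 3 lung and airway markers, Sftpc and Sftpa1 reached at most 2 counts in any library, while the airway gene Scgb1a1 had 3.36, 0.608 and 0 CPM in KO-TAC libraries and 0.157, 0 and 15.8 CPM in WT-TAC libraries. The part of airway RNA in any result was not tested. The column of KO-TAC replicate 3 carries the number that the labels give to WT-TAC replicate 3. Its library index occurs in the label of that KO-TAC sample and of no other, and it was placed on that ground. KO-TAC replicate 3 and WT-TAC replicate 3 were also the closest of all pairs of libraries in their counts, with a median chi-square per gene of 3.0 against 3.82 to 7.12 for the other pairs and 0.455 for sampling noise alone. The row for Mir204 had no count in any library and does not check the labels. H2-Ea-ps was 1 of 3 genes called among 12487 tested. It held 67, 48 and 59 counts in KO-TAC libraries and 0, 0 and 1 counts in WT-TAC libraries. BC002163, also called, had 518, 270 and 619 counts in KO-TAC libraries and 27, 58 and 42 counts in WT-TAC libraries. Cacna1h, called as well, had 13, 46 and 40 counts in KO-TAC libraries and 271, 489 and 204 counts in WT-TAC libraries. For all 3 genes, KO-TAC replicate 3 stood with the other KO-TAC libraries. They were called with KO-TAC replicate 3 placed as above, so their counts are no independent check of that placement. Fold changes of the described chains without KO-TAC replicate 3 are given after the overall comparison.

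Collagen levels varied widely among libraries of the same genotype. The summed level of all 44 chains was 6422, 5099 and 2707 CPM in KO-TAC libraries and 6233, 4161 and 2170 CPM in WT-TAC libraries. Each genotype thus had 1 library rich in collagen transcripts, replicate 1, and 1 poor in them, replicate 3, and the ranges overlap almost entirely. KO-TAC replicate 3 was the lowest of its genotype for 28 of the 31 tested chains, while it was the lowest for 39.8% of all tested genes. WT-TAC replicate 3 was the lowest of its genotype for 25 of the 31 chains, against 34.4% of all tested genes. The median within-genotype SD of log2 CPM was 0.716 over the tested chains and 0.346 over all tested genes, and 87.0% of tested genes had a smaller SD than the collagen median. The chains that varied least were Col20a1, Col22a1 and Col4a5, with SDs of 0.387, 0.436 and 0.443. The chains that varied most were Col6a6, Col7a1 and Col4a6, with SDs of 1.66, 1.65 and 1.56.

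**Figure D2:**
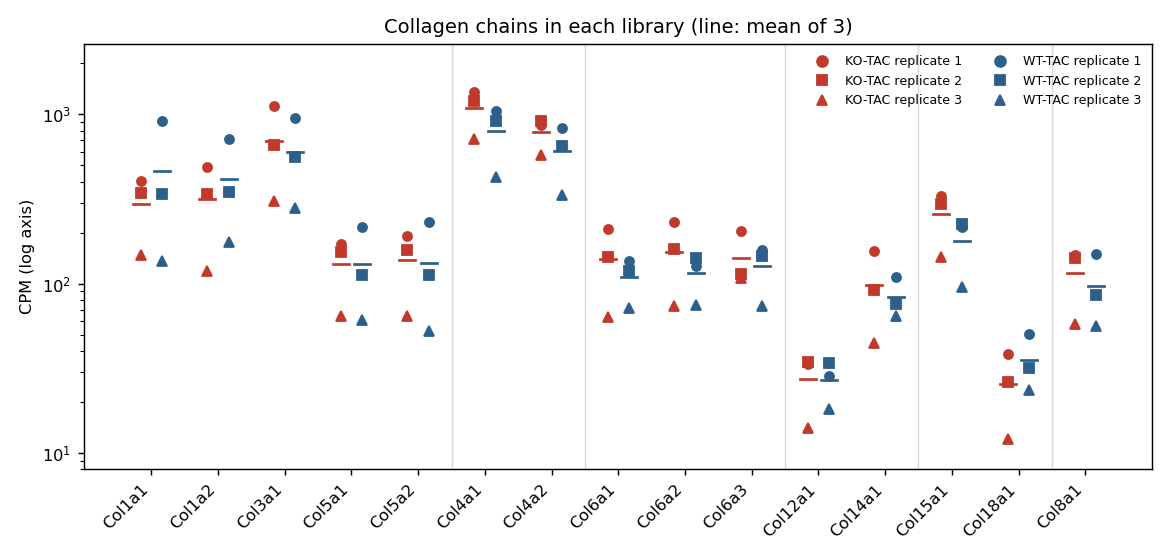
Each point is the CPM of a chain in 1 library on a log axis, with KO-TAC (red) left of WT-TAC (blue), the marker shape giving the replicate and a line the mean of 3. Replicate 3 is the lowest point of its genotype for each of the 15 chains in both genotypes, and Col1a1 stands apart in WT-TAC replicate 1 at 917 CPM.

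Some other genes varied between libraries in a like order, and others did not. Nppa, which encodes the natriuretic peptide ANP, made in atria and induced in ventricles by load, had 6603, 5033 and 311 CPM in KO-TAC libraries and 7904, 2444 and 2668 CPM in WT-TAC libraries. Nppb, which encodes the related peptide BNP, had 1492, 817 and 129 CPM in KO-TAC libraries and 741, 383 and 202 CPM in WT-TAC libraries. In each genotype Nppb was highest in the library richest in collagen and lowest in the poorest, and Nppa was highest in the richest. The 6 markers of activated fibroblasts, Postn, Cthrc1, Fap, Cilp, Comp and Acta2, summed to 569, 642 and 199 CPM in KO-TAC libraries and 566, 463 and 227 CPM in WT-TAC libraries. The 6 general fibroblast markers, Pdgfra, Tcf21, Dpt, Gsn, Mfap5 and Dpep1, summed to 2598, 1675 and 1280 CPM in KO-TAC and 1124, 1464 and 1677 CPM in WT-TAC, of which Gsn alone made up 2296, 1464 and 1058 CPM in KO-TAC and 899, 1282 and 1420 CPM in WT-TAC. In WT-TAC libraries Gsn, Dpt and Dpep1 ran opposite to the collagen sum, Dpep1 at 31.9, 34.3 and 62.2 CPM. There Tcf21 and Mfap5 ran with the collagen sum, Mfap5 at 34.6, 16.2 and 9.18 CPM. Pdgfra, the receptor that defines cardiac fibroblasts, stayed between 72.8 and 93.5 CPM in KO-TAC and 53.5 and 80.3 CPM in WT-TAC. In bulk tissue, fewer cells of a type and less RNA per cell cannot be told apart. Markers of atrial and endocardial tissue varied as well. The 4 atrial markers Myl7, Myl4, Sln and Bmp10 summed to 1055, 579 and 104 CPM in KO-TAC libraries and 843, 553 and 768 CPM in WT-TAC libraries, with Myl4 at 796, 455 and 59.0 CPM in KO-TAC and 681, 357 and 518 CPM in WT-TAC. The 3 endocardial markers Npr3, Vwf and Nfatc1 summed to 896, 511 and 251 CPM in KO-TAC libraries and 263, 394 and 530.3 CPM in WT-TAC libraries. In KO-TAC both sums followed the order of the collagen sum, and in WT-TAC neither did. The part of load, of atrial tissue or of cell composition in the collagen levels was not tested.

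**Figure D3:**
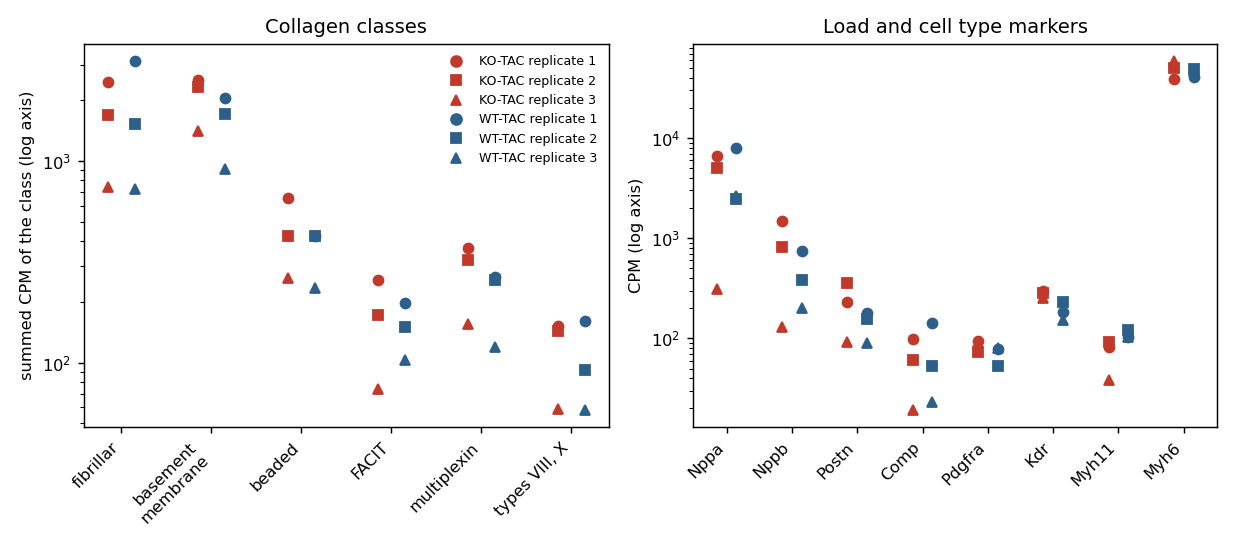
The left panel gives the summed CPM of 6 collagen classes and the right panel the CPM of load and cell type markers, both on log axes, 1 point per library with KO-TAC (red) left of WT-TAC (blue) and the replicate given by the marker shape. Replicate 3 is lowest for each class in both genotypes, as it is for Nppb and Comp, whereas Pdgfra varies less.

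No collagen chain was called as different between the genotypes, which does not show that their levels were equal. With edgeR's quasi-likelihood test, 0 of the 31 tested chains passed an adjusted p of 0.05, beside 0.024% of all tested genes (0.016% higher and 0.00801% lower in KO-TAC), and the adjusted p was 0.999 for each chain. In this run none reached an unadjusted p of 0.05, beside 2.93% of all tested genes. DESeq2 and limma-voom called 0 chains too. The smallest unadjusted p of a chain was that of Col7a1 in both, 0.0345 with DESeq2 and 0.066 with limma-voom. The log2 fold change of KO-TAC over WT-TAC was above 0 for 21 chains and below 0 for 10, with a median of 0.22, beside 0.00 over all tested genes. The fold changes ran from −1.98 for Col7a1 to 0.79 for Col5a3.

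The CPM of the genotypes did not overlap for 1 chain, Col20a1, which was higher in KO-TAC; 4.26% of all tested genes did not overlap in that direction, 3.72% in the other and 7.98% in either. A single library set the sign of the median. It was −0.15 without KO-TAC replicate 1, with 12 of 31 chains above 0, and −0.03 without WT-TAC replicate 3, with 15. It was 0.47 without WT-TAC replicate 1, with 26 chains above 0, and 0.42 without KO-TAC replicate 3, with 24.

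Without KO-TAC replicate 3, the library whose column number differs from its label, 0 chains were called. The class medians of log2 fold change were then 0.33 for fibrillar, 0.65 for basement membrane, 0.52 for beaded filament and 0.42 for FACIT chains. Among fibrillar chains the values were −0.32 for Col1a1, 0.00 for Col1a2, 0.58 for Col3a1, 0.33 for Col5a1, 0.41 for Col5a2 and 0.94 for Col5a3. Type IV chains stood at 0.68 for Col4a1, 0.56 for Col4a2 and 0.96 for Col4a4, and type VI chains at 0.70 for Col6a1, 0.76 for Col6a2 and 0.33 for Col6a3. The others were 0.33 for Col12a1, 0.58 for Col14a1, 0.68 for Col20a1, 0.81 for Col15a1, −0.13 for Col18a1, 0.57 for Col8a1, −0.83 for Col8a2 and −1.71 for Col7a1. Each of these 20 values was higher than with all libraries. The smallest edgeR adjusted p among them was 0.253, that of Col4a4.

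**Figure D4:**
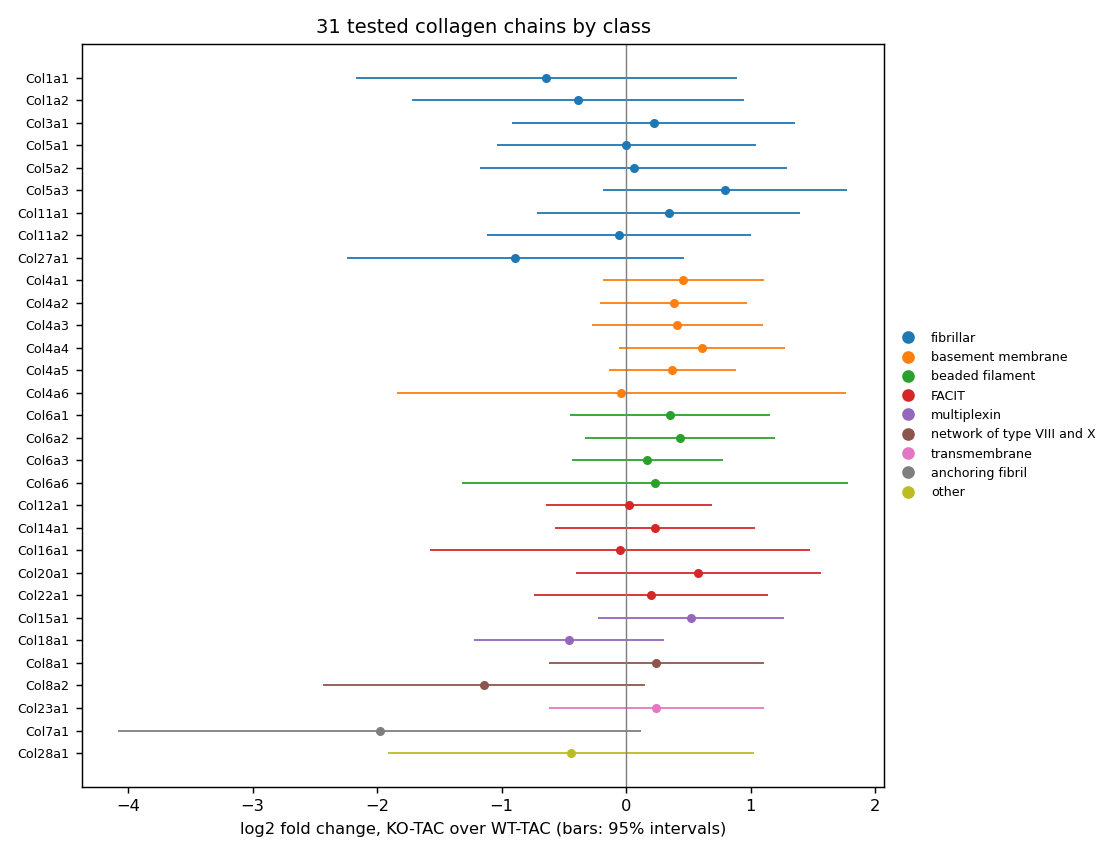
Points give the log2 fold change of KO-TAC over WT-TAC for the 31 tested chains, colored by class, and bars span 1.96 standard errors each way. Each bar crosses 0, and 5 of the 6 basement membrane chains lie between 0.37 and 0.61.

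Per kilobase of transcript, the scale on which chains can be compared, Col4a1 was the highest chain, at 164 ± 50.2 CPM per kb in KO-TAC and 120 ± 48.8 in WT-TAC (SD, n = 3 each). It was followed by Col3a1, at 125 ± 73.7 CPM per kb in KO-TAC and 107 ± 60.4 in WT-TAC, and Col4a2, at 122 ± 28.4 in KO-TAC and 93.6 ± 39.0 in WT-TAC (SD, n = 3 each). In each genotype these 3 means differed by less than the SD of Col4a1. Col1a2 had 59.1 ± 35.0 CPM per kb in KO-TAC and 77.5 ± 51.8 in WT-TAC, and Col1a1 had 50.1 ± 22.5 in KO-TAC and 78.4 ± 68.3 in WT-TAC (SD, n = 3 each). In both genotypes the means of Col4a1, Col3a1 and Col4a2 were ahead of those of the type I chains. In WT-TAC this lead lay within the SDs of the chains. In WT-TAC replicate 1, Col1a1 and Col1a2, at 155 and 134 CPM per kb, exceeded Col4a2, at 128. Col1a1 and Col1a2 did not differ beyond their spread.

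Among the fibrillar chains, 9 of 11 were tested, with 5 fold changes above 0, 4 below and a median of 0.00. Their sum was 2456, 1695 and 739 CPM in KO-TAC libraries and 3113, 1523 and 724 CPM in WT-TAC libraries, and the genotypes overlapped. Col1a1 (chromosome 11, 94936224 to 94953042, GRCm38), which encodes the chain that makes up most of type I collagen, had 403, 342 and 147 CPM in KO-TAC libraries and 917, 340.2 and 137 CPM in WT-TAC libraries. Replicates 2 and 3 were nearly equal between genotypes and WT-TAC replicate 1 stood far above the rest. The log2 fold change was −0.64 ± 0.78 (SE), or 0.640-fold (95% interval 0.222 to 1.84). Without WT-TAC replicate 1 it was 0.31.

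Col1a2, the partner chain of type I, had 492, 338 and 119 CPM in KO-TAC libraries and 718, 349 and 176 CPM in WT-TAC libraries. WT-TAC replicate 1 was again the highest and the ranges overlap. The log2 fold change was −0.39 ± 0.68, and 0.26 without WT-TAC replicate 1. Col3a1, the single chain of type III, which is the more pliable fibre, had 1124, 656 and 307 CPM in KO-TAC libraries and 948, 559 and 279.8 CPM in WT-TAC libraries. Its log2 fold change was 0.22 ± 0.58, or 1.17-fold (0.533 to 2.56), and it was −0.30 without KO-TAC replicate 1.

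The type V chains start and regulate the diameter of type I fibrils. Col5a1 had 171, 155 and 64.4 CPM in KO-TAC libraries and 216, 113 and 61.1 CPM in WT-TAC libraries, a log2 fold change of 0.00 ± 0.53. Col5a2 had 192, 158 and 64.0 CPM in KO-TAC libraries and 231, 113 and 52.7 CPM in WT-TAC libraries, a log2 fold change of 0.06 ± 0.63. For both, the 6 libraries stood in the same order, with WT-TAC replicate 1 highest and WT-TAC replicate 3 lowest. Col5a3, the third type V chain, had 41.5, 22.5 and 22.5 CPM in KO-TAC libraries and 18.7, 25.8 and 5.20 CPM in WT-TAC libraries. A log2 fold change of 0.79 ± 0.50, or 1.73-fold (0.875 to 3.42), was the highest among the tested chains, and it was 0.37 to 1.27 with 1 library left out. KO-TAC replicate 1 and WT-TAC replicate 3 held the highest and lowest of its 6 values.

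Type XI chains, known from cartilage and as relatives of type V, were scarce. Col11a1 ran from 5.10 to 11.1 CPM in KO-TAC and 1.92 to 9.75 CPM in WT-TAC, and Col11a2 from 2.96 to 6.14 CPM in KO-TAC and 2.05 to 7.24 CPM in WT-TAC. Col27a1, a fibrillar chain of developing cartilage that holds a miR-204 match, had 15.2, 13.6 and 5.62 CPM in KO-TAC libraries and 45.6, 10.3 and 8.35 CPM in WT-TAC libraries. WT-TAC replicate 1 alone lay outside the range of the others, and the log2 fold change was −0.89 ± 0.69. Of the 6 valve and cartilage markers, Sox9, Acan and Matn4 were also highest in that library, whereas Chad, Lect1 and Hapln1 had no count there. The 6 valve and cartilage markers summed to 4.58 to 23.5 CPM in KO-TAC and 16.3 to 31.8 CPM in WT-TAC, and their part in the values of Col27a1 was not tested.

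All 6 type IV chains were tested, 5 of them were above 0, and the median was 0.40, between 0.25 and 0.65 when each library was left out in turn. None passed the test. Their sum was 2513, 2331 and 1406 CPM in KO-TAC libraries and 2049, 1703 and 913 CPM in WT-TAC libraries. KO-TAC replicates 1 and 2 were above each WT-TAC library, and KO-TAC replicate 3 lay below WT-TAC replicates 1 and 2.

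Col4a1 (chromosome 8, 11198423 to 11312826), which with Col4a2 forms the main type IV molecule of most basement membranes, had 1354, 1194 and 715 CPM in KO-TAC libraries and 1040.0, 912 and 427 CPM in WT-TAC libraries. Its log2 fold change was 0.46 ± 0.33, or 1.37-fold (0.880 to 2.14). Col4a2 (chromosome 8, 11312805 to 11449287) had 863, 916 and 575 CPM in KO-TAC libraries and 828, 651 and 332 CPM in WT-TAC libraries, a log2 fold change of 0.38 ± 0.30. Both chains had replicate 3 as the lowest library of each genotype, and for both the ranges of the genotypes overlap.

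Col4a1 and Col4a2 are transcribed in opposite directions from starts 21 bases apart. Their annotated ends overlap by 22 bases, and whether a sample had a strand-marking kit is not given, so reads in that overlap cannot be told apart. The RefSeq window of Col4a2 (plus strand, chr8:11312555-11312854, GRCm38.p6), 250 bases before to 50 bases after its start, is shown because it holds the starts of both genes. Capitals mark CCAAT and GGGCGG, searched on both strands, so CCGCCC, the complement of GGGCGG, is in capitals too. ATTGG, the complement of CCAAT, does not occur in this window.
Col4a2 window: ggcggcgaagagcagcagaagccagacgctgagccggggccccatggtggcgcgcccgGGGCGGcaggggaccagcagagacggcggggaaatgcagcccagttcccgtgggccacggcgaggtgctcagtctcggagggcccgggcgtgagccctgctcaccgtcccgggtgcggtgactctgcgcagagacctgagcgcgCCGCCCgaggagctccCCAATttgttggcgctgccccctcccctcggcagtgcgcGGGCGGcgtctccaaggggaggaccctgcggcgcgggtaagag
The window holds 1 CCAAT and 3 GGGCGG matches. Such matches are common: CCAAT occurs in 37.4% and GGGCGG in 35.7% of all 32851 RefSeq promoter windows. Of 38 windows belonging to 35 collagen genes, 34.2% hold CCAAT and 60.5% hold GGGCGG.

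The transcripts of this pair kept a steady ratio. So did those of Col5a1 and Col5a2, on chromosomes 2 and 1, whose ratio ranged 1.3-fold over the 6 libraries. The ratio of Col4a1 to Col4a2 was 1.57, 1.30 and 1.24 in KO-TAC libraries and 1.26, 1.40 and 1.29 in WT-TAC libraries, a range of 1.26-fold over the 6 libraries, whereas Col4a1 itself ranged 3.17-fold and Col4a2 2.76-fold. The mean log2 ratio was 0.45 ± 0.18 in KO-TAC and 0.39 ± 0.08 in WT-TAC (SD, n = 3 each), with an exact permutation p of 0.7. The other type IV chains are also arranged in head-to-head pairs, Col4a3 with Col4a4 on chromosome 1, with 72 bases between starts, and Col4a5 with Col4a6 on chromosome X, with 1309 bases between starts. Their ratios varied more, 2.34-fold for Col4a3 to Col4a4 and 8.00-fold for Col4a5 to Col4a6. Col4a6 was scarce, with 5 counts in KO-TAC replicate 3, and itself ranged 22.0-fold, while Col4a5 ranged 2.24-fold.

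Col4a3, Col4a4 and Col4a5 make the type IV network known from kidney and lung. Col4a4 had 73.2, 57.1 and 22.8 CPM in KO-TAC libraries and 30.04, 36.3 and 33.8 CPM in WT-TAC libraries. The WT-TAC values lay close together and KO-TAC values stood on both sides of them. Set against each other, they gave a log2 fold change of 0.61 ± 0.34, or 1.53-fold (0.964 to 2.42). Without KO-TAC replicate 3 it was 0.96 with an edgeR adjusted p of 0.253. Col4a5 had 173, 125 and 77.3 CPM in KO-TAC libraries and 113, 82.0 and 95.6 CPM in WT-TAC libraries, a log2 fold change of 0.37 ± 0.26. Col4a3, which holds a miR-204 match, had 34.8, 35.4 and 14.9 CPM in KO-TAC libraries and 30.8, 18.7 and 14.7 CPM in WT-TAC libraries, a log2 fold change of 0.41 ± 0.35. Col4a6 ran from 0.739 to 16.2 CPM in KO-TAC and 2.87 to 9.72 CPM in WT-TAC, and its log2 fold change was −0.04 ± 0.92.

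Endothelial markers stood on the same side as the type IV chains. The 6 markers Pecam1, Cdh5, Kdr, Fabp4, Cldn5 and Emcn summed to 1165, 1072 and 1075 CPM in KO-TAC libraries and 837, 953 and 826 CPM in WT-TAC libraries, which do not overlap. Of the 6, Kdr and Cldn5 did not overlap and were higher in KO-TAC, as were 4.26% of all tested genes, and 0 were called. Kdr, which encodes the main VEGF receptor, had a log2 fold change of 0.56 ± 0.20, and Cldn5, which encodes an endothelial tight junction protein, had 1.04 ± 0.37. KO-TAC replicate 3 was the lowest of its genotype for Pecam1, Cdh5, Kdr and Emcn, as it was for the type IV chains, and the highest for Fabp4, at 397 CPM against 255 and 221 CPM in KO-TAC replicates 1 and 2. The 5 pericyte markers Rgs5, Kcnj8, Abcc9, Pdgfrb and Cspg4 summed to 694, 723 and 803 CPM in KO-TAC libraries and 559, 696 and 683 CPM in WT-TAC libraries, and Rgs5 and Kcnj8 did not overlap singly and were higher in KO-TAC, beside the same 4.26% of all tested genes. The part of endothelial or pericyte RNA in the type IV values was not tested.

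The beaded filament class had 4 of 6 chains tested, all with fold changes above 0 and a median of 0.29, which was −0.02 without KO-TAC replicate 1. Col6a1 (chromosome 10, 76708792 to 76726168) had 209, 145 and 63.7 CPM in KO-TAC libraries and 136, 119 and 72.0 CPM in WT-TAC libraries, a log2 fold change of 0.35 ± 0.41. Col6a2 had 230.0, 159.7 and 73.7 CPM in KO-TAC libraries and 127, 142 and 75.2 CPM in WT-TAC libraries, a log2 fold change of 0.43 ± 0.39. Both chains were highest in KO-TAC replicate 1 and spanned the WT-TAC range from above to below. Col6a3, whose product is the longest of the common type VI chains, had 204, 114 and 108 CPM in KO-TAC libraries and 159, 146 and 74.1 CPM in WT-TAC libraries, a log2 fold change of 0.17 ± 0.31.

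Col6a1, Col6a2 and Col6a3 assemble into 1 molecule. The ratio of Col6a1 to Col6a2 was 0.909, 0.906 and 0.864 in KO-TAC libraries and 1.07, 0.835 and 0.958 in WT-TAC libraries. Its mean log2 was −0.16 ± 0.04 in KO-TAC and −0.08 ± 0.18 in WT-TAC (SD, n = 3 each; exact permutation p of 0.5), and it ranged 1.27-fold over the 6 libraries while each chain ranged over 3-fold. The ratio of Col6a1 to Col6a3 was less steady, with a range of 2.15-fold. Col6a6, which holds a miR-204 match, had 10.8, 7.41 and 15.2 CPM in KO-TAC libraries and 0.629, 14.6 and 13.0 CPM in WT-TAC libraries. WT-TAC replicate 1, the library highest for Col1a1, had nearly none, and the log2 fold change was 0.23 ± 0.79.

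The FACIT class had 5 of 9 chains tested, with 4 fold changes above 0 and a median of 0.20, which was −0.15 at its lowest when 1 library was left out. Col20a1 (chromosome 2, 180986535 to 181018363) had 5.26, 5.59 and 4.29 CPM in KO-TAC libraries and 3.93, 4.13 and 2.05 CPM in WT-TAC libraries. It rested on 29 to 46 counts in KO-TAC libraries and 15 to 36 in WT-TAC libraries. The lowest KO-TAC value exceeded the highest WT-TAC value by little, and the log2 fold change was 0.58 ± 0.50, or 1.49-fold (0.755 to 2.95). Col14a1, a fibril-associated chain of connective tissue, had 156, 91.9 and 44.6 CPM in KO-TAC libraries and 109, 75.8 and 64.2 CPM in WT-TAC libraries, a log2 fold change of 0.23 ± 0.41. Col12a1, a related chain of loaded tissue such as tendon, had 33.6, 34.3 and 14.0 CPM in KO-TAC libraries and 28.6, 34.2 and 18.1 CPM in WT-TAC libraries, a log2 fold change of 0.02 ± 0.34. Col16a1 ran from 6.65 to 53.6 CPM in KO-TAC and 14.1 to 49.7 CPM in WT-TAC, and Col22a1 from 3.99 to 6.80 CPM in KO-TAC and 3.42 to 6.31 CPM in WT-TAC.

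Multiplexins are collagens of basement membrane zones whose ends can be released, as endostatin is from type XVIII. Col15a1, the type XV chain, found around capillaries and muscle fibres, holds a miR-204 match and had 331, 295 and 143 CPM in KO-TAC libraries and 215, 226 and 96.0 CPM in WT-TAC libraries. KO-TAC replicates 1 and 2 exceeded each WT-TAC library and replicate 3 did not. The log2 fold change was 0.52 ± 0.38, or 1.43-fold (0.856 to 2.39). Col18a1 had 38.3, 26.1 and 12.1 CPM in KO-TAC libraries and 50.3, 31.6 and 23.7 CPM in WT-TAC libraries, a log2 fold change of −0.46 ± 0.39. The multiplexin chains thus had fold changes of opposite sign, and neither passed the test.

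Col8a1, a short network-forming chain of vessel walls, had 147, 141 and 57.5 CPM in KO-TAC libraries and 150.2, 85.7 and 56.2 CPM in WT-TAC libraries, a log2 fold change of 0.24 ± 0.44. Its partner Col8a2 had 5.55, 1.82 and 1.48 CPM in KO-TAC libraries and 11.3, 6.08 and 2.19 CPM in WT-TAC libraries, a log2 fold change of −1.14 ± 0.66. Col7a1, the anchoring fibril chain of skin, had 22, 0 and 5 counts in KO-TAC libraries and 58, 46 and 8 counts in WT-TAC libraries. It had the smallest unadjusted p of the chains, 0.0906 with edgeR's quasi-likelihood test, and a log2 fold change of −1.98 ± 1.07, or 0.254-fold (0.0596 to 1.08). With 1 library left out, Col7a1 ran from −3.82 without KO-TAC replicate 1 to −1.30 without WT-TAC replicate 1, and Col8a2 from −1.96 to −0.50 under the same omissions. Both Col7a1 and Col8a2 were highest in WT-TAC replicate 1 and overlapped between genotypes. The remaining tested chains were Col23a1, a transmembrane collagen, at 0.24 ± 0.44, and Col28a1 at −0.44 ± 0.75.

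The smooth muscle markers Myh11, Tagln, Acta2, Cnn1 and Lmod1, from the vessel walls in which type VIII is known, summed to 183, 176 and 66.8 CPM in KO-TAC libraries and 229, 270.3 and 205 CPM in WT-TAC libraries, which do not overlap. Of these 5, Myh11, Tagln and Lmod1 did not overlap singly and were lower in KO-TAC, as were 3.72% of all tested genes, and 0 were called. The part of smooth muscle RNA in the type VIII values was not tested.

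The 6 tested chains with a miR-204 match stood at a median log2 fold change of 0.29, while the 25 tested chains without it stood at 0.20. Over all tested genes with a 3' UTR the medians were −0.02 with the match and 0.01 without. The 6 fold changes were 0.41 for Col4a3, 0.00 for Col5a1, 0.35 for Col6a1, 0.23 for Col6a6, 0.52 for Col15a1 and −0.89 for Col27a1, and the spread among them exceeded the difference between the medians.

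Ratios of partner chains were compared because they cancel what all chains of a library share. For type I, the ratio of Col1a1 to Col1a2 was 0.820, 1.01 and 1.23 in KO-TAC libraries and 1.28, 0.975 and 0.776 in WT-TAC libraries, with a mean log2 of 0.01 ± 0.29 in KO-TAC and −0.02 ± 0.36 in WT-TAC (SD, n = 3 each; exact permutation p of 0.9). The ratio of Col1a1 to Col3a1 was 0.358, 0.521 and 0.479 in KO-TAC libraries and 0.967, 0.609 and 0.488 in WT-TAC libraries. Its mean log2 was −1.16 ± 0.28 in KO-TAC and −0.60 ± 0.50 in WT-TAC, a difference of −0.56 (SD, n = 3 each; exact two-sided permutation p of 0.2, adjusted 0.8 over the 4 ratios tested). With 3 samples against 3, this test cannot give a p below 0.1. The difference was −0.29 at its closest to 0 when a library was left out.

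**Figure D5:**
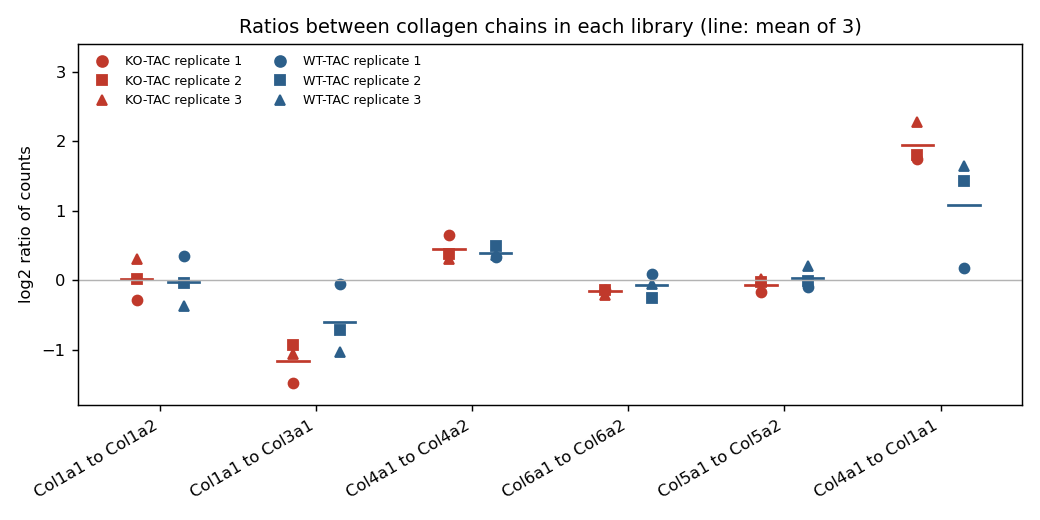
Each point is the log2 ratio of a pair of collagen transcripts in 1 library, with KO-TAC (red) left of WT-TAC (blue), the marker shape giving the replicate and a line the mean of 3. The ratios of Col4a1 to Col4a2, Col6a1 to Col6a2 and Col5a1 to Col5a2 vary little among the libraries. Of the ratios shown, only that of Col4a1 to Col1a1, looked at after the values were seen, does not overlap between the genotypes.

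The ratio of Col4a1 to Col1a1 was looked at after the values were seen and was not tested. It was 3.36, 3.50 and 4.87 in KO-TAC libraries and 1.13, 2.68 and 3.13 in WT-TAC libraries. The KO-TAC values lay above the WT-TAC values, with WT-TAC replicate 1 far below the rest. Each other ratio of chains that was computed overlapped between the genotypes. How often ratios of other genes fail to overlap was not computed.

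Genes that modify, export, trim and crosslink collagen were read from the same fit. Of 35 rows for such genes 31 were tested, and Mia2 had a second row under its older symbol Ctage5. Of those tested, 0 were called, beside 0.024% of all tested genes. Fold changes were above 0 for 22 and below for 9, beside 50.2% above 0 over all tested genes, and the median was 0.27. Without KO-TAC replicate 1, 15 of the genes then tested were above 0 and 17 below, with a median of −0.02. Of 15 genes for prolyl and lysyl modification, 13 were above 0, with a median of 0.29. P4ha2, a catalytic subunit of prolyl 4-hydroxylase, which stabilises the triple helix, had 64.6, 67.8 and 65.0 CPM in KO-TAC libraries and 58.5, 62.8 and 51.5 CPM in WT-TAC libraries. These values do not overlap, as was so for 4.26% of all tested genes in that direction, and the log2 fold change was 0.19 ± 0.18. P3h3, of the prolyl 3-hydroxylase family, had 34.2, 26.4 and 12.6 CPM in KO-TAC libraries and 15.4, 18.8 and 17.1 CPM in WT-TAC libraries, a log2 fold change of 0.51 ± 0.33, and 0.82 without KO-TAC replicate 3. Plod2, the lysyl hydroxylase of collagen telopeptides, had 33.9, 33.4 and 44.9 CPM in KO-TAC libraries and 64.0, 37.8 and 36.0 CPM in WT-TAC libraries, a log2 fold change of −0.29 ± 0.25.

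Of the 6 tested chaperone and export genes, 1 was above 0, Serpinh1, which encodes the collagen chaperone HSP47, at 0.44 ± 0.31. It had 419, 290.3 and 149 CPM in KO-TAC libraries and 241, 226 and 167 CPM in WT-TAC libraries, so KO-TAC replicate 3 was below each WT-TAC library. Tmem38b, an endoplasmic reticulum ion channel needed for collagen secretion, was at −0.23 ± 0.25. Of 6 tested genes for propeptide processing, 5 were above 0, among them Adamts3, a procollagen N-propeptidase, at 0.49 ± 0.31.

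Among 4 tested crosslinking genes, Loxl1, a lysyl oxidase known for its role in elastic fibres, had 87.8, 86.1 and 40.6 CPM in KO-TAC libraries and 56.3, 46.5 and 29.7 CPM in WT-TAC libraries. Its log2 fold change was 0.70 ± 0.31 (edgeR, unadjusted p = 0.0424, adjusted p = 0.999), and 0.98 (adjusted p = 0.457) without KO-TAC replicate 3. It was higher in KO-TAC for 2 of 3 libraries relative to each WT-TAC library, and the ranges overlap. Lox, the main collagen crosslinking enzyme, had 52.2, 22.0 and 14.5 CPM in KO-TAC libraries and 37.6, 16.2 and 7.53 CPM in WT-TAC libraries, a log2 fold change of 0.54 ± 0.67.

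Of 10 collagen receptor genes 9 were tested and 0 were called, beside 0.024% of all tested genes. Their fold changes were above 0 for 6 and below for 3, beside 50.2% above 0 over all tested genes, with a median of 0.01. Itga1, the alpha subunit of the integrin that binds type IV and type I collagen, had 80.4, 70.7 and 76.3 CPM in KO-TAC libraries and 102, 91.6 and 83.4 CPM in WT-TAC libraries. These values do not overlap, as was so for 3.72% of all tested genes in that direction, and vary little within a genotype. The log2 fold change was −0.28 ± 0.18. Its partner Itgb1 was at 0.00 ± 0.18. Ddr2, the discoidin receptor of fibroblasts for fibrillar collagen, had 69.1, 60.5 and 77.0 CPM in KO-TAC libraries and 58.2, 64.3 and 78.1 CPM in WT-TAC libraries, with a log2 fold change of 0.04 ± 0.19.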

How the data were processed

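RNA of 6 heart samples was sequenced from Illumina TruSeq libraries, made with a plain or a stranded kit per the labels' protocols. The kit of each single sample is not stated. The deposited table holds raw counts per gene symbol, with no normalization, and all its columns were used. The submitters' processing notes list 4 tools, without roles: edgeR, Subread, HISAT2 (version 2.1.0) and FastQC. The builds listed there are GRCm38 and mm10.

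The low-count filter was filterByExpr (minimum count 10) and the scaling TMM. The robust quasi-likelihood test of edgeR 4.0.16 (R 4.3.3) compared KO-TAC with WT-TAC without covariates, with Benjamini-Hochberg adjustment over all 12487 tested genes and a threshold of 0.05. Fold changes are log2 of KO-TAC over WT-TAC ± SE. The SE is the absolute fold change over the square root of F, and 95% intervals span 1.96 SE each way. This is the normal multiple, so the intervals are narrower than the F test would give. For Tagln, the interval of 0.239 to 0.962-fold excluded 1 while the edgeR unadjusted p was 0.0688. CPM use TMM-scaled library sizes. Log2 ratios of chains and the fold ranges of ratios use a prior count of 2, while single ratios are of plain counts. Log2 ratios were tested by exact two-sided permutation in SciPy 1.17.1. The fit was tested on simulated data in which each gene had a biological coefficient of variation of 0.286. The collagen chains varied more than most genes, so the simulation does not show the power of the test for them.

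Other settings tried were upper-quartile, RLE or no scaling, a stricter filter or none, DESeq2 1.42.0, limma-voom (limma 3.58.1), the replicate number as a block, and each library left out. The members, classes and lists were chosen with earlier results of these data known. Described per library are a panel of 15 chains, those without overlap and the 2 smallest p in each direction, and for maturation and receptor genes those without overlap and the 3 smallest p in each direction. Other chains are given to account for the members, and Serpinh1, Lox, Itgb1 and Ddr2 were chosen after their values were seen. Col6a1 to Col6a3, Col4a1 to Col1a1 and similar added ratios are descriptions. Totals were 6411538 to 8571737 counts with a biological coefficient of variation of 0.286, so the spread between samples limits the abundant chains and depth limits chains of few counts.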

Additional observations from a re-analysis of the deposited data

How the results depend on the processing

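No collagen chain was called under any alternative run. Over all genes the 3 calls became 21 with no filter, 16 with DESeq2, 6 with the replicate block and 0 with limma-voom, which had 364 genes at an unadjusted p under 0.05; they numbered 0 to 7 when 1 library was left out, 0 being without WT-TAC replicate 1, with 437 genes at an unadjusted p under 0.05. The cause was not tested. The labels do not say whether numbers shared between genotypes pair the samples, and the values do not settle it. Deviations of same-numbered libraries correlated at 0.135, 0.011 and 0.257, and those of differently numbered libraries at −0.223 to 0.146. With the block, 574 genes had an edgeR unadjusted p under 0.05, beside 366 in the main test. The SE of Col1a1 was then 0.24, beside 0.78 in the main test. The block called 0 chains, with Col15a1 at the smallest edgeR adjusted p of 0.678 and an unadjusted p of 0.00478. With no filter, Col4a4 had the smallest edgeR unadjusted p of the chains, 0.0236, and an adjusted p of 0.975.

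Col12a1, 0.02 in the main test, was −0.03 with limma-voom and with the replicate block. With 1 library left out, log2 fold changes ran from −0.20 to 0.33 for Col12a1, −0.28 to 0.58 for Col14a1, −1.08 to 0.31 for Col1a1, −0.86 to 0.26 for Col1a2, −0.30 to 0.72 for Col3a1, −0.31 to 0.73 for Col5a2, −0.06 to 0.70 for Col6a1, −0.18 to 0.36 for Col6a3, −0.03 to 0.69 for Col8a1 and −0.45 to 0.02 for Plod2. Differences in log2 ratio ran from −0.15 to 0.21 for Col1a1 to Col1a2 and −0.04 to 0.12 for Col4a1 to Col4a2. Median log2 fold changes ran from −0.33 to 0.57 for fibrillar, 0.25 to 0.65 for basement membrane, −0.02 to 0.52 for beaded filament and −0.15 to 0.45 for FACIT chains. These medians, and the untested ratios, were added after the data were seen. The scaling alternatives moved the median of all genes by under 0.1 log2.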

Other observations

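The chains without a test had few counts, unevenly spread over the libraries. Col10a1, the type X chain of growth cartilage, had 0, 9 and 0 counts in KO-TAC libraries and none in WT-TAC libraries. Col6a5 had 4, 4 and 3 counts in KO-TAC libraries and 20, 2 and 3 counts in WT-TAC libraries, so WT-TAC replicate 1 held the most, while it held the fewest of Col6a6, with 0.629 CPM. Col13a1, a transmembrane collagen, had 4, 8 and 29 counts in KO-TAC libraries and 24, 3 and 10 counts in WT-TAC libraries. Col25a1, another transmembrane chain, had 7, 7 and 11 counts in KO-TAC libraries and 1, 24 and 4 counts in WT-TAC libraries. Col9a2, a FACIT chain of cartilage, had 11, 25 and 0 counts in KO-TAC libraries and 6, 0 and 5 counts in WT-TAC libraries. These values carry no comparison, and their depth cannot show a difference between genotypes.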
